A study of Mus musculus with 12 samples.

Results

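Cadherins and protocadherins are cell-surface adhesion proteins that bind across the gap between cells, and the transcripts of 55 of their genes were followed here in 2 brain regions of mice of 2 App and Aplp2 genotypes. A gene was taken as a member where a probe set carried a single symbol made of Cdh and a digit, or a symbol starting with Pcdh, with the endothelial gene Cdh5 left out. This gave 99 probe sets of the 45037 on the arrays and 55 of the 18193 genes with a symbol of their own, and the probe set with the highest mean over the 12 arrays stood for its gene. The members comprised 20 Cdh genes (5 type I classical, 10 type II classical and 5 other cadherins), 12 non-clustered protocadherins (4 of the delta-1 group, 5 of the delta-2 group and 3 others) and 23 clustered protocadherins (22 of the beta cluster and Pcdhgc4 of the gamma cluster). They lay unevenly over the genome, with 26 of the 55 on chromosome 18, where the protocadherin clusters are.

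Prefrontal cortex and hippocampus were dissected from adult female mice aged 38 to 40 weeks on a C57BL/6 background, after 6 generations of back-crossing, and total RNA was hybridised to Affymetrix arrays. One genotype, APLP2-KO, lacks the amyloid precursor-like protein 2 (APLP2-/-). The other, APPsα-DM, lacks it too and also carries an edited App gene on both alleles (APPα/α), which leaves the secreted alpha ectodomain of the amyloid precursor protein. There were 3 mice per genotype and 3 arrays in each of the 4 groups. Neither genotype is written as restricted to a cell type, and both lack Aplp2. Wild-type mice were not analysed here, so no value below is a difference from normal brain.

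Classical cadherins bind the same cadherin on the facing membrane through calcium-dependent outer domains and are tied to actin inside the cell by beta-catenin and alpha-catenin. Type II cadherins and the non-clustered delta protocadherins are known for patterns that follow brain regions and circuits, while clustered protocadherins are switched on in different sets in single neurons, each from a promoter of its own, and give a neuron an adhesive identity. In cortex and hippocampus these proteins act in axon targeting, dendrite branching and the building of excitatory synapses, where the amyloid precursor protein family is also found.

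The arrays agreed closely within a group, with Pearson correlations over all probe sets of 0.995 to 0.997 in 12 pairs, against 0.987 to 0.992 in 36 pairs of different tissue. App itself differed between genotypes on 2 of its 4 probe sets. The one that differed more stood at 12.63 in cortex of APLP2-KO mice and 7.96 in cortex of APPsα-DM mice, and at 12.53 and 7.93 in hippocampus (log2 signal, means of 3 arrays). The 5 Aplp2 probe sets did not pass the threshold between genotypes, and the brightest of them stood near 10 in all groups, with no Aplp2 wild-type array here to set it against. Tissue markers separated the regions: 6 of 10 dentate granule cell markers and 8 of 10 markers of the CA fields were higher in hippocampus in each genotype, and 8 of 11 cortical layer markers in APLP2-KO and 7 of 11 in APPsα-DM were lower there. The cortical layer list was not uniform: Nr4a2 was higher in hippocampus in both genotypes (1.40 and 1.08), and Bcl11b was higher in APLP2-KO (0.43). The cortex pieces also held markers of striatal neurons, all 9 of which were lower in hippocampus, with a median difference of -2.50 log2 units in APLP2-KO and -2.32 in APPsα-DM. The mean of 11 choroid plexus markers ranged from 4.79 to 8.73 over the arrays, and Ttr, the transthyretin gene of that tissue, stood at 14.03 on APLP2-KO cortex array 3 and 14.18 on APPsα-DM cortex array 2 against 8.20 to 9.42 on the other 4 cortex arrays. The part of the region and striatal marker differences in the cadherin results was not tested. The choroid plexus signal was examined only by leaving out arrays and by a covariate. On the hippocampus arrays Ttr stood at 10.63 to 14.36, above the 4 lower cortex arrays. Without the 2 high cortex arrays, Ttr was therefore higher on every hippocampus array than on every cortex array. That setting cannot tell choroid plexus signal from tissue, and calls kept under it are not shown to be free of that signal. Leaving out the 2 cortex arrays high in Ttr ended the APPsα-DM tissue calls of Cdh19 (-0.28, adjusted p = 0.0710) and Pcdh17 (0.29, adjusted p = 0.0733) among the 13 members called between tissues in both genotypes. With the choroid plexus mean as a covariate, that of Cdh19 ended (-0.21, adjusted p = 0.134).

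**Figure D1:**
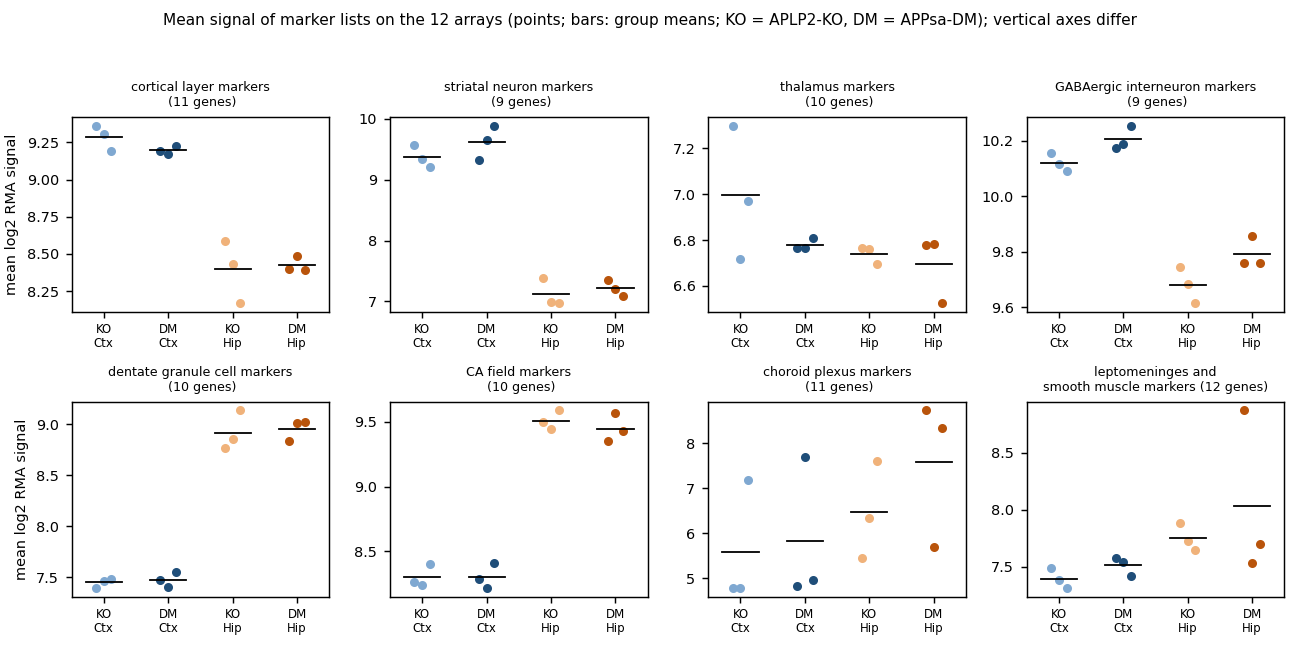
Mean log2 signal of 8 lists of region and cell type markers on each of the 12 arrays; points are arrays, bars are group means, and the vertical axes differ. Striatal neuron markers sit at 9.21 to 9.88 on cortex arrays and 6.98 to 7.38 on hippocampus arrays, while choroid plexus markers differ between arrays of the same group.

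The larger pattern lay between tissues. Between hippocampus and cortex, 15 members passed the threshold in APLP2-KO mice and 16 in APPsα-DM mice (limma, Benjamini-Hochberg adjusted p under 0.05 over all probe sets). In APLP2-KO, 7 members were higher in hippocampus and 8 lower, which is 27.3% of the members beside 12.6% of all probe sets (5.62% higher and 6.98% lower). In APPsα-DM, 6 were higher and 10 lower, or 29.1% of members beside 10.6% of all probe sets (5.21% higher and 5.42% lower). Over the brightest probe set of each gene, as used for the members, 16.5% passed in APLP2-KO and 13.9% in APPsα-DM. In all, 13 of 55 members (23.6%) passed in the same direction in both genotypes, beside 8.31% of all probe sets and 11.4% of the brightest probe sets of all genes. Of these, 5 were higher in hippocampus (background 3.89%) and 8 were lower (background 4.43%). Differences of at least 1 log2 unit in both genotypes were found for 6 members (10.9%, beside 1.27% of all probe sets and 1.68% of genes). The median difference over the members was near 0, at -0.01 in APLP2-KO and -0.05 in APPsα-DM, beside 0.01 and -0.01 over all probe sets. The median size of the difference was 0.17 and 0.19, beside 0.11 in each genotype over all probe sets, with differences in both directions. A signal on an array of whole tissue does not tell fewer cells of a type from less RNA per cell.

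By class, the members called in both genotypes were 4 of 5 delta-2 protocadherins (3 higher in hippocampus and 1 lower), 2 of 4 delta-1 protocadherins (both lower), Pcdh20 among the 3 other non-clustered protocadherins, 5 of 10 type II cadherins (1 higher and 4 lower) and 1 of 5 type I cadherins. None of the 5 other cadherins and none of the 23 clustered protocadherins passed in both genotypes. Together, 13 of the 32 genes outside the clusters passed in both (40.6%), beside 8.31% of all probe sets and 11.4% of genes. The same shares stand beside each class count above, and several classes hold 5 genes or fewer. Signal also differed between these classes, with 13 of the 23 clustered members dimmer than the median probe set of the array and 10 of the 32 others.

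**Figure D2:**
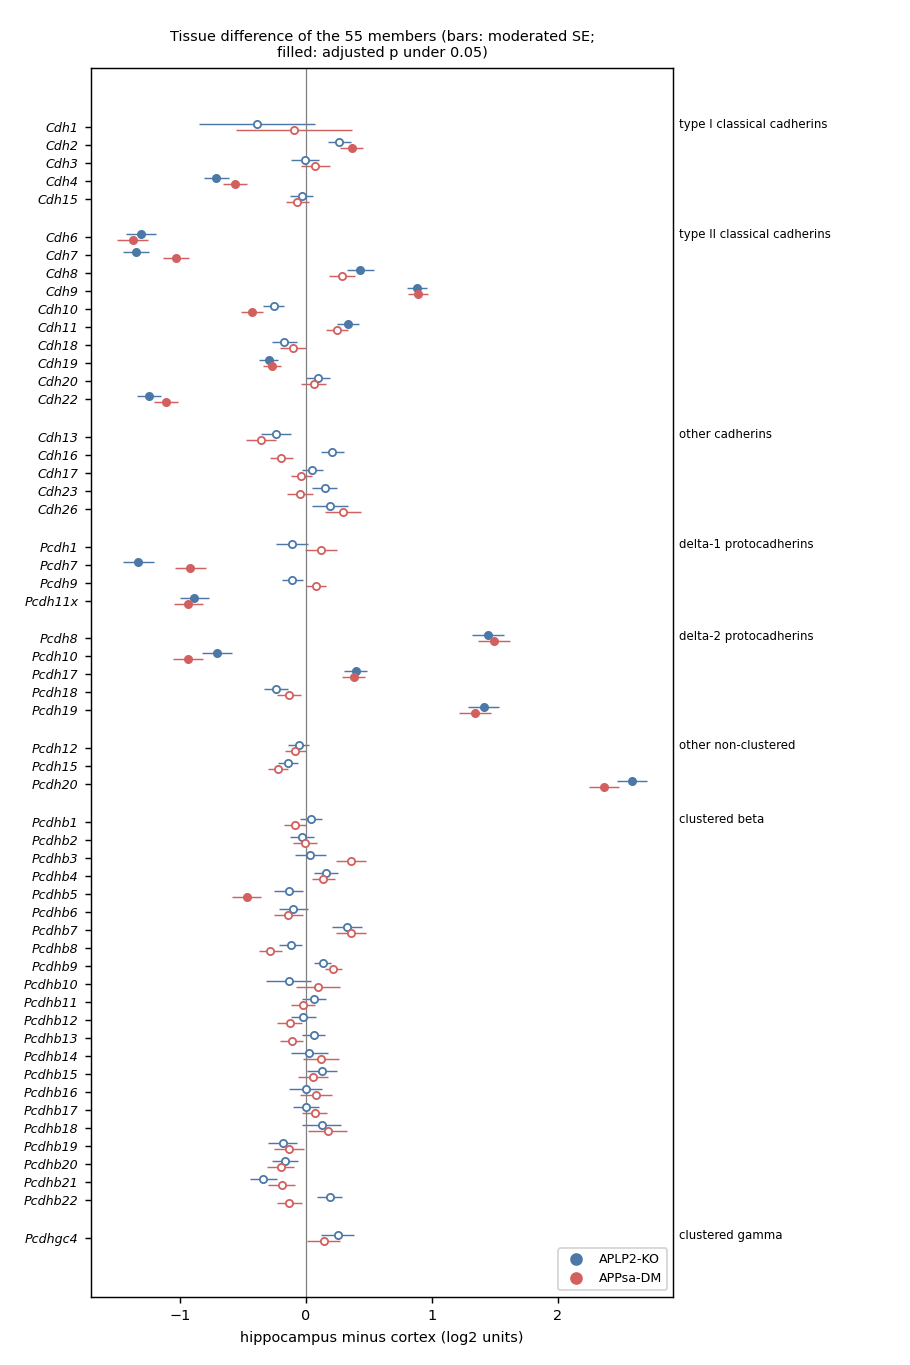
Difference between hippocampus and cortex (horizontal axis, log2 units) of each of the 55 members by class, for APLP2-KO (blue) and APPsα-DM (red); bars are moderated standard errors and filled points have adjusted p under 0.05. Pcdh20, Pcdh8 and Pcdh19 lie farthest to the right and Cdh6, Cdh7, Cdh22 and Pcdh7 farthest to the left, and the beta cluster lies between -0.47 and 0.36.

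The 6 members with the differences of at least 1 log2 unit are shown first with the sequence just upstream of their start sites, since their levels separate the 2 tissues on every array. The windows are the 250 bases before a RefSeq start site in GRCm38.p6, written 5′ to 3′ on the gene's strand. Capitals mark 4 short motifs on either strand, and overlapping matches run together. The GC box was searched as GGGCGG. The box spelled CCAAT is common before start sites of many genes. The classical core element near a start was searched as TATAAA. The half-site of the cAMP response element was searched as TGACG. Cdh7 has 3 promoters in the table, of which the most upstream is shown.
Pcdh20, chr14:88471397-88471646, minus strand: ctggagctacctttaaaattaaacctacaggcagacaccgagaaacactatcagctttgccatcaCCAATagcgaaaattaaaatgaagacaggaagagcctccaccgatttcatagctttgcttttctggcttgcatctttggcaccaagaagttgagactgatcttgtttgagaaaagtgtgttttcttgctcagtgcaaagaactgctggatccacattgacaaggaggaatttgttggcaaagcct
Pcdh8, chr14:79771313-79771562, minus strand: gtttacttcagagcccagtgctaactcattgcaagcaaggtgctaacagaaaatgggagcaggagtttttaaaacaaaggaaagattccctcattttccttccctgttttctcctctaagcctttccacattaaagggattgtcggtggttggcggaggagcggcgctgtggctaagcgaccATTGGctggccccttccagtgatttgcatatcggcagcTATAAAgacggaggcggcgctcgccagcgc
Pcdh19, chrX:133688994-133689243, minus strand: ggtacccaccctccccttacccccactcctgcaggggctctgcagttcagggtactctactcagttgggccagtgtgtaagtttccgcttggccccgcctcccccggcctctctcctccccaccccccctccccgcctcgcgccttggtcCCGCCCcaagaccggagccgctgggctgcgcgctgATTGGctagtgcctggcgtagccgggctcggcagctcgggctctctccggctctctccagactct
Cdh7, chr1:109982650-109982899, plus strand: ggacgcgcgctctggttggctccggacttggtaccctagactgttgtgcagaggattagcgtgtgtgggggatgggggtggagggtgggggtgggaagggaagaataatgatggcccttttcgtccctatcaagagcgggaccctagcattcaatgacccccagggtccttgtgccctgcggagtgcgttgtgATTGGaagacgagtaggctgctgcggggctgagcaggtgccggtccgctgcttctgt
Cdh6, chr15:13173676-13173925, minus strand: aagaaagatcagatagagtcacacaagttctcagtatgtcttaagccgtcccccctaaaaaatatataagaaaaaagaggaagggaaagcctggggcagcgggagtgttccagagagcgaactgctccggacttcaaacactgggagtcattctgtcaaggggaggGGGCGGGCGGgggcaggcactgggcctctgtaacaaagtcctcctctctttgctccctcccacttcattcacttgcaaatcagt
Cdh22, chr2:165234738-165234987, minus strand: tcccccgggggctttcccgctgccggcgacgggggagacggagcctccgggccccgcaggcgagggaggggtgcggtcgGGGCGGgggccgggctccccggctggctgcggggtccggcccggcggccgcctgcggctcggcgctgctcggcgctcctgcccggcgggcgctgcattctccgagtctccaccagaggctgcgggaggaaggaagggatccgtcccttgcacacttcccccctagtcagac

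A match to these letters is a description and not a binding site. In these 6 windows, Pcdh8 alone held the TATA element, whose first base lay 30 bases before the start. The CCAAT letters were found in Pcdh20, Pcdh8, Pcdh19 and Cdh7, and the GC box in Pcdh19, Cdh6 and Cdh22. Their GC content ran from 42.4% in Pcdh20 to 77.6% in Cdh22. Of all members, 20 genes with 23 promoters matched the table, and CCAAT lay in 65.2% of these windows, beside 33.8% of the 32851 windows of the whole table. The GC box lay in 34.8% of the members' windows and 32.7% of all. The TATAAA letters lay in 8.7% and 12.4%. The half-site lay in 17.4% and 17.8%.

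Pcdh20, a non-clustered protocadherin on chromosome 14, had the largest tissue difference of the members. Its log2 signal was 7.53, 7.57 and 7.36 in APLP2-KO cortex and 9.90, 10.03 and 10.31 in APLP2-KO hippocampus. In APPsα-DM it was 7.42, 7.84 and 7.62 in cortex and 9.99, 9.96 and 10.03 in hippocampus. All 6 hippocampus arrays lay far above all 6 cortex arrays. The difference was 2.59 ± 0.12 (SE, n = 3 per group) in APLP2-KO, or 6.03-fold, with limma adjusted p = 7.28e-08, and 2.37 ± 0.12 in APPsα-DM, or 5.16-fold, with adjusted p = 1.58e-07. A second probe set for Pcdh20 gave 2.84 and 2.53.

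The delta-2 protocadherins, which carry a cytoplasmic motif that binds the WAVE actin regulators in several members, held 3 more genes higher in hippocampus. Pcdh8, also known as arcadlin, is a transcript induced by synaptic activity whose protein draws N-cadherin into the cell. Its log2 signal was 9.63, 9.46 and 9.54 in APLP2-KO cortex against 10.95, 10.98 and 11.06 in hippocampus, and 9.80, 9.19 and 9.68 in APPsα-DM cortex against 11.01, 11.13 and 11.01 in hippocampus. The tissues did not overlap, and APPsα-DM cortex array 2, one of those high in Ttr, was the lowest of all. The difference was 1.45 ± 0.13 in APLP2-KO (2.73-fold, adjusted p = 9.17e-06) and 1.49 ± 0.13 in APPsα-DM (2.82-fold, adjusted p = 8.36e-06), and another probe set gave 1.45 and 1.50.

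Pcdh19, an X-linked gene whose protein pairs with N-cadherin and whose human mutations cause an epilepsy in females, stood at 8.88, 8.74 and 8.75 in APLP2-KO cortex and 10.14, 10.21 and 10.25 in hippocampus. In APPsα-DM it stood at 9.00, 8.43 and 8.99 in cortex and 10.14, 10.15 and 10.18 in hippocampus. The hippocampus arrays were tightly grouped and all higher, and the lowest cortex array was again APPsα-DM cortex 2. The difference was 1.41 ± 0.12 in APLP2-KO (2.66-fold, adjusted p = 9.67e-06) and 1.34 ± 0.12 in APPsα-DM (2.54-fold, adjusted p = 1.64e-05), and the 3 Pcdh19 probe sets gave 1.34 to 1.46. Pcdh17, known for a role in synapses of corticobasal circuits, was higher in hippocampus by 0.40 ± 0.09 in APLP2-KO (adjusted p = 0.0108) and 0.38 ± 0.09 in APPsα-DM (adjusted p = 0.0157). The APPsα-DM call for Pcdh17 was lost without APPsα-DM cortex array 2, hippocampus array 2 or hippocampus array 3 (adjusted p = 0.0580, 0.0556 and 0.0659), with both Ttr-high cortex arrays left out (0.0733) and in a fit of the APPsα-DM arrays alone (0.0606). Its second probe set gave 0.36 and 0.35 with adjusted p = 0.0581 and 0.066.

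Pcdh10, a delta-2 protocadherin known for a part in the removal of synapses, went the other way. It stood at 9.51, 9.48 and 9.50 in APLP2-KO cortex and 9.00, 8.83 and 8.54 in hippocampus, and at 9.76, 9.44 and 9.82 in APPsα-DM cortex and 8.69, 8.73 and 8.80 in hippocampus. Every hippocampus array was below every cortex array. The difference was -0.70 ± 0.12 (adjusted p = 0.00142) in APLP2-KO and -0.93 ± 0.12 (adjusted p = 0.000195) in APPsα-DM, and all 6 Pcdh10 probe sets were called lower in both genotypes. Pcdh18, the remaining delta-2 member, was not called, at -0.24 and -0.13.

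Of the delta-1 protocadherins, which share a longer cytoplasmic part with a site for protein phosphatase 1, 2 were lower in hippocampus. Pcdh7 stood at 10.37, 10.45 and 10.42 in APLP2-KO cortex and 9.22, 9.13 and 8.89 in hippocampus, a difference of -1.33 ± 0.12 (adjusted p = 1.51e-05). In APPsα-DM it stood at 10.39, 10.09 and 10.36 in cortex and 9.09, 9.53 and 9.46 in hippocampus, a difference of -0.92 ± 0.12 (adjusted p = 0.00035). The tissues did not overlap on the brightest Pcdh7 probe set, and the other 2 Pcdh7 probe sets were called in APLP2-KO (-0.85 and -0.48) but not in APPsα-DM (-0.63 and -0.34). Pcdh11x, an X-linked delta-1 gene, was lower by a similar amount in each genotype, at -0.89 ± 0.12 (adjusted p = 0.000224) and -0.93 ± 0.12 (adjusted p = 0.00018). Pcdh9 and Pcdh1 were not called, at -0.11 each in APLP2-KO and 0.08 and 0.12 in APPsα-DM.

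**Figure D3:**
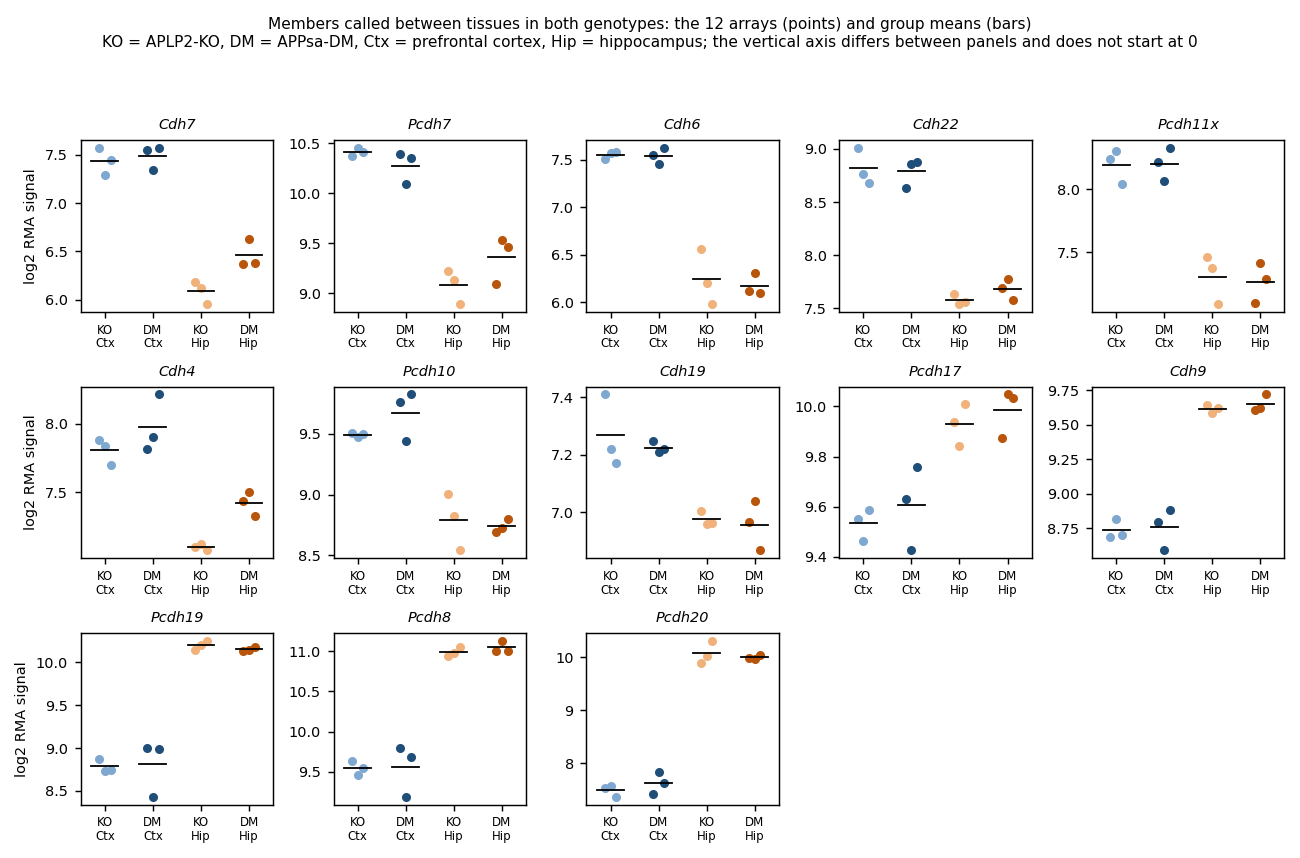
Log2 signal on the 12 arrays of the 13 members called between tissues in both genotypes; points are arrays, bars are group means, and the vertical axis differs between panels and does not start at 0. In every panel the 3 hippocampus arrays of a genotype lie wholly above or wholly below its 3 cortex arrays.

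Type II cadherins held the other large decreases. Cdh7 stood at 7.57, 7.29 and 7.45 in APLP2-KO cortex and 6.19, 6.12 and 5.95 in hippocampus, a difference of -1.35 ± 0.10 (2.55-fold lower, adjusted p = 2.93e-06). In APPsα-DM it stood at 7.55, 7.35 and 7.57 in cortex and 6.37, 6.63 and 6.38 in hippocampus, a difference of -1.03 ± 0.10 (2.04-fold lower, adjusted p = 3.25e-05). Cortex arrays were all higher in both genotypes, and all 3 Cdh7 probe sets were called lower in both.

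Cdh6, also called K-cadherin from its kidney expression, stood at 7.51, 7.57 and 7.58 in APLP2-KO cortex and 6.56, 6.20 and 5.98 in hippocampus, a difference of -1.31 ± 0.12 (2.47-fold lower, adjusted p = 1.49e-05). In APPsα-DM it stood at 7.55, 7.46 and 7.62 in cortex and 6.11, 6.30 and 6.09 in hippocampus, a difference of -1.37 ± 0.12 (2.59-fold lower, adjusted p = 1.15e-05). The tissues were apart on every array, and a dimmer Cdh6 probe set gave smaller differences of -0.57 and -0.74. Cdh22, which the rat literature calls PB-cadherin for pituitary and brain, stood at 9.01, 8.77 and 8.68 in APLP2-KO cortex and 7.63, 7.54 and 7.56 in hippocampus, a difference of -1.24 ± 0.10 (2.37-fold lower, adjusted p = 3.29e-06). In APPsα-DM, Cdh22 stood at 8.64, 8.86 and 8.87 in cortex and 7.70, 7.77 and 7.58 in hippocampus, a difference of -1.11 ± 0.10 (2.15-fold lower, adjusted p = 9.72e-06). Every cortex array was above every hippocampus array for Cdh22.

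Cdh9, a type II cadherin known for the synapses that dentate granule cells make on CA3 neurons, was the type II member called higher in hippocampus in both genotypes. It stood at 8.69, 8.81 and 8.70 in APLP2-KO cortex and 9.65, 9.58 and 9.62 in hippocampus, and at 8.80, 8.59 and 8.88 in APPsα-DM cortex and 9.61, 9.62 and 9.72 in hippocampus. The difference was 0.88 ± 0.08 (adjusted p = 1.23e-05) and 0.89 ± 0.08 (adjusted p = 1.28e-05), with no overlap between tissues. Cdh19, a gene of Schwann cells and their precursors, was lower, with differences of -0.29 ± 0.07 (adjusted p = 0.0195) and -0.27 ± 0.07 (adjusted p = 0.0354). Cdh19 was close to the threshold. Its APLP2-KO call was lost without APLP2-KO cortex array 1, hippocampus array 2 or hippocampus array 3 (adjusted p = 0.0768, 0.0696 and 0.0615). Its APPsα-DM call was lost without APLP2-KO hippocampus array 2 (adjusted p = 0.0548) and without any of the APPsα-DM arrays except hippocampus array 2 (adjusted p from 0.0710 to 0.150). Fits of each genotype's arrays alone lost both Cdh19 calls (adjusted p = 0.0555 and 0.0678).

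Among type I cadherins, Cdh4, or R-cadherin, was lower in hippocampus, at 7.88, 7.84 and 7.70 against 7.10, 7.12 and 7.07 in APLP2-KO and 7.82, 7.91 and 8.22 against 7.43, 7.50 and 7.32 in APPsα-DM. The difference was -0.71 ± 0.10 (adjusted p = 0.000339) and -0.56 ± 0.10 (adjusted p = 0.0023), with the tissues apart, and a second Cdh4 probe set was called as well (-0.60 and -0.52) while the dimmest was not (-0.01 and -0.03). Cdh1, Cdh3 and Cdh15, the cadherins of epithelia, placenta and muscle, were not called and lay below or just above the median probe set of the array at 5.89.

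Another 5 members passed in 1 genotype only, 2 in APLP2-KO (3.64%) and 3 in APPsα-DM (5.45%). Of all probe sets, 12.6% passed in APLP2-KO, 10.6% in APPsα-DM and 8.31% in both. No share for 1 genotype only is given, so the count only describes the members. For none of the 5 was the difference between genotypes past the threshold, so they are not shown to differ by genotype. Cdh2, or N-cadherin, the main classical cadherin of synapses, was higher in APPsα-DM hippocampus by 0.37 ± 0.09 (adjusted p = 0.0232), beside 0.27 ± 0.09 in APLP2-KO (adjusted p = 0.0861). Its tissues did not overlap in either genotype. Cdh11 was called in APLP2-KO (0.33 ± 0.09, adjusted p = 0.0209) beside 0.25 in APPsα-DM (adjusted p = 0.089), and Cdh8 in APLP2-KO (0.43 ± 0.10, adjusted p = 0.0154) beside 0.29 in APPsα-DM (adjusted p = 0.111). Cdh10 was called in APPsα-DM (-0.43 ± 0.09, adjusted p = 0.0063) beside -0.26 in APLP2-KO (adjusted p = 0.0777). All 4 are brain cadherins whose difference had the same sign in both genotypes. Under some alternatives Cdh2 and Cdh10 also passed in APLP2-KO (lowest adjusted p = 0.0245 and 0.0379). Cdh8 and Cdh11 likewise passed in APPsα-DM (lowest adjusted p = 0.0339 and 0.0461). Pcdhb5, the clustered member that passed, was lower in APPsα-DM hippocampus, with a difference of -0.47 ± 0.11 (adjusted p = 0.0193) beside -0.13 ± 0.11 in APLP2-KO (adjusted p = 0.541). Its mean signal of 4.88 lay below that of the median probe set, 5.89. All 5 calls were lost under some alternative. That of Cdh10 in APPsα-DM was lost with all probe sets of the gene averaged, where the difference was -0.16 (adjusted p = 0.146), and not when a single array was left out. The call was lost without APPsα-DM cortex array 1 or 2 or hippocampus array 2 or 3 for Cdh2 (adjusted p from 0.0757 to 0.105), for which it was also lost with both Ttr-high cortex arrays left out (0.0995) and with the APPsα-DM arrays fitted alone (0.0829), and without APLP2-KO cortex array 1 or hippocampus array 1 or 2 for Cdh11 (adjusted p from 0.0661 to 0.0786). For Cdh8 it was lost without APLP2-KO hippocampus array 1 (adjusted p = 0.0525) and with all Cdh8 probe sets averaged, where the difference was 0.26 (adjusted p = 0.0898). For Pcdhb5 it was lost without any APPsα-DM cortex array or without APPsα-DM hippocampus array 2 or 3 (adjusted p from 0.0507 to 0.0725), or with both Ttr-high cortex arrays left out (0.0701), and the APLP2-KO difference of Pcdhb5 was 0.02 without APLP2-KO cortex array 2.

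Genes with several probe sets gave a check within the arrays. Of the 55 members, 26 had more than 1. For Cdh2, Cdh11 and Cdh10, no other probe set was called in the genotype where the brightest was. For Cdh8, a dimmer probe set was called in APPsα-DM (0.43, adjusted p = 0.0204) and not in APLP2-KO (0.15), the reverse of the brightest one. Cdh13, or T-cadherin, a member held in the membrane by a lipid anchor, was not called on its brightest probe set (-0.24 and -0.35), while its second brightest was called lower in both genotypes (-0.37, adjusted p = 0.0129, and -0.46, adjusted p = 0.00354). Pcdhb4 likewise was not called on its brightest probe set (0.16 and 0.14) and was called higher on the other (0.51, adjusted p = 0.0199, and 0.45, adjusted p = 0.0436). The brightest Pcdhb4 probe set had a mean of only 4.32, beside 5.89 for the median probe set, and the called one was dimmer still.

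**Figure D4:**
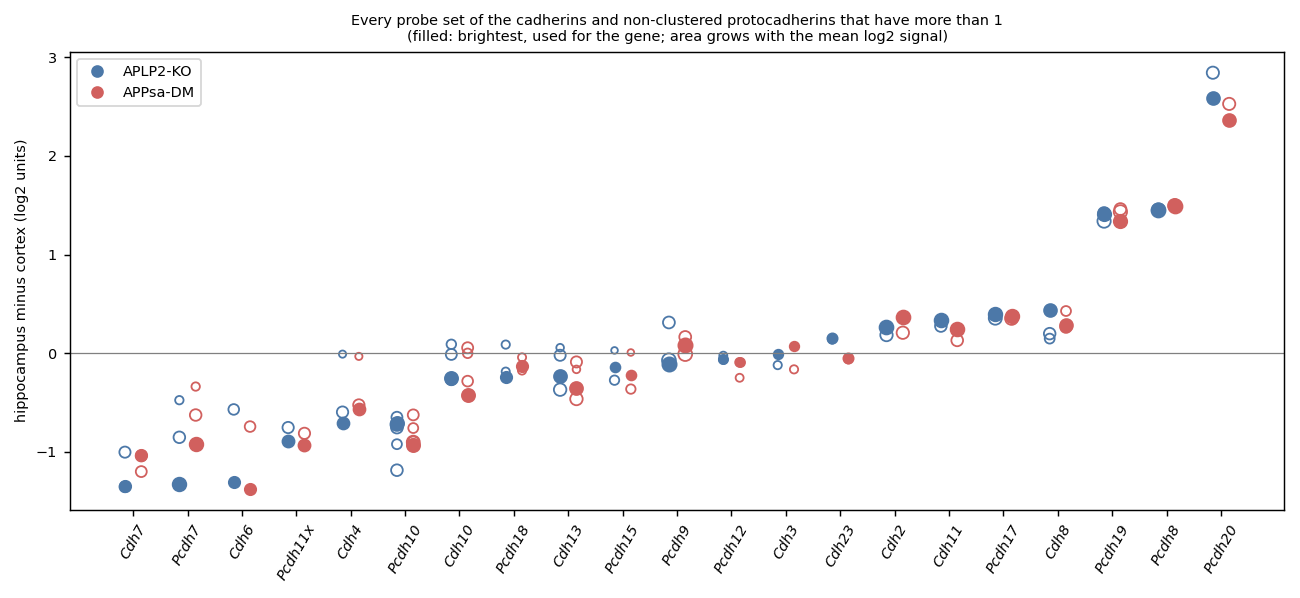
Tissue difference (vertical axis, log2 units) of every probe set of the cadherins and non-clustered protocadherins that have more than 1; filled circles are the brightest probe set, which stands for the gene, and the area grows with mean signal. The probe sets of Pcdh20, Pcdh8, Pcdh19, Cdh7 and Pcdh10 lie on the same side of 0, while the dimmest Cdh4 probe set lies near 0 beside differences of -0.71 and -0.56.

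The clustered protocadherins, which sit in tandem on chromosome 18, showed small tissue differences. They ranged from -0.34 (Pcdhb21) to 0.33 (Pcdhb7) in APLP2-KO and from -0.47 (Pcdhb5) to 0.36 (Pcdhb7) in APPsα-DM, with medians of 0.03 and -0.01. The median size was 0.13 in each genotype, beside 0.11 over all probe sets. Pcdhb21 had adjusted p = 0.0596 in APLP2-KO and passed when replicate numbers were fitted as pairs (adjusted p = 0.0195). Beta-cluster genes have near-identical stretches, and a probe set may take signal from a neighbour. The alpha cluster was measured by 6 further probe sets, each naming several alpha genes, which are not members and differed by -0.32 to -0.05. One of these was called in APLP2-KO (-0.32, adjusted p = 0.025).

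Between tissues, 19 of the 55 members (34.5%) had no overlap of the arrays in either genotype. Beside this stand 16.4% of all probe sets, which are not only the brightest of each gene. The sign was the same in both genotypes for 43 of the 55 members, and 37 were called in neither genotype. Neither count is set beside a share over all probe sets, so both only describe the members.

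The study's own comparison, between genotypes, gave no called member in either tissue. In cortex, 0 of 55 members passed (limma), where 4 of 45037 probe sets or 0.00888% did. An unadjusted p under 0.05 was found for 1 of the 55 members, beside 2027 of 45037 probe sets (4.5%). That gene was Pcdhb8, at 5.25, 5.24 and 5.14 in APLP2-KO and 5.41, 5.52 and 5.35 in APPsα-DM, a difference of 0.22 ± 0.09 (unadjusted p = 0.0393, limma). Its genotypes did not overlap, which held for 1 member (1.82%) beside 8.73% of all probe sets. The next smallest unadjusted limma p-values in cortex were 0.0988 for Cdh16, 0.0995 for Cdh4, 0.111 for Cdh8 and 0.112 for Pcdhb15, with log2 differences of 0.16, 0.17, 0.18 and 0.20 in that order. The differences ran from -0.14 (Pcdhb7) to 0.22 (Pcdhb8). For 54 of the 55 members the 95% interval of the cortex difference lay within 0.5 log2 units of 0, and the exception was Cdh1, from -0.80 to 1.20.

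In hippocampus, 0 of 55 members passed, where 4 of 45037 probe sets or 0.00888% did. An unadjusted p under 0.05 was found for 6 of the 55 members, beside 1852 of 45037 probe sets (4.11%). The smallest p belonged to Cdh7, which stood at 6.19, 6.12 and 5.95 in APLP2-KO hippocampus and 6.37, 6.63 and 6.38 in APPsα-DM hippocampus, a difference of 0.37 ± 0.10 (unadjusted p = 0.00321, limma, 95% interval 0.15 to 0.60). Cdh4 followed at 0.32 ± 0.10 (unadjusted p = 0.00618, limma), with 7.10, 7.12 and 7.07 against 7.43, 7.50 and 7.32. The other probe sets of these genes gave smaller hippocampus differences, 0.17 and 0.16 for Cdh7 (unadjusted p = 0.335 and 0.109, limma) and 0.09 and -0.02 for Cdh4 (unadjusted p = 0.510 and 0.791, limma). On the brightest probe sets both were higher on all 3 APPsα-DM hippocampus arrays, and both are genes that were lower in hippocampus than in cortex. Cdh16, known from kidney, differed by -0.24 ± 0.09 and Pcdhb5 by -0.27 ± 0.11, and Pcdhb3 and Pcdh7 by 0.29 ± 0.12 and 0.28 ± 0.12. Adjusted p was 1.00 for all 6. The genotypes did not overlap for 8 members in hippocampus (Cdh4, Cdh7, Cdh10, Cdh16, Pcdhb5, Pcdhb9, Pcdhb10 and Pcdhb13), or 14.5% beside 9.88% of all probe sets.

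The 95% interval of the hippocampus difference lay within 0.5 log2 units of 0 for 47 of the 55 members. The widest was that of Cdh1, or E-cadherin, from -0.51 to 1.49 around 0.49. Its value was 6.39 on APPsα-DM hippocampus array 1 and 4.75 and 3.90 on the other two, beside 4.03 to 4.89 in APLP2-KO hippocampus. The same array had the highest mean of the 12 leptomeninges and smooth muscle markers, 8.87 against 7.31 to 7.88 on all other arrays, and of the choroid plexus markers, 8.73. On APPsα-DM hippocampus array 3 the choroid plexus mean was 8.34, and Cdh1 stood at 3.90, its lowest value of the 12 arrays. The part of these markers in the Cdh1 value was not tested.

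The genotype difference did not differ between tissues for any member past the threshold, where 0 of 45037 probe sets, or 0%, passed. An unadjusted p under 0.05 was found for 4 of the 55 members, beside 1705 of 45037 probe sets (3.79%). The smallest p-values were those of Cdh16, whose hippocampus difference minus cortex difference was -0.40 ± 0.13 (unadjusted p = 0.00793, limma), Pcdh7 (0.41 ± 0.17, unadjusted p = 0.0351) and Pcdhb22 (-0.32 ± 0.14, unadjusted p = 0.0427).

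**Figure D5:**
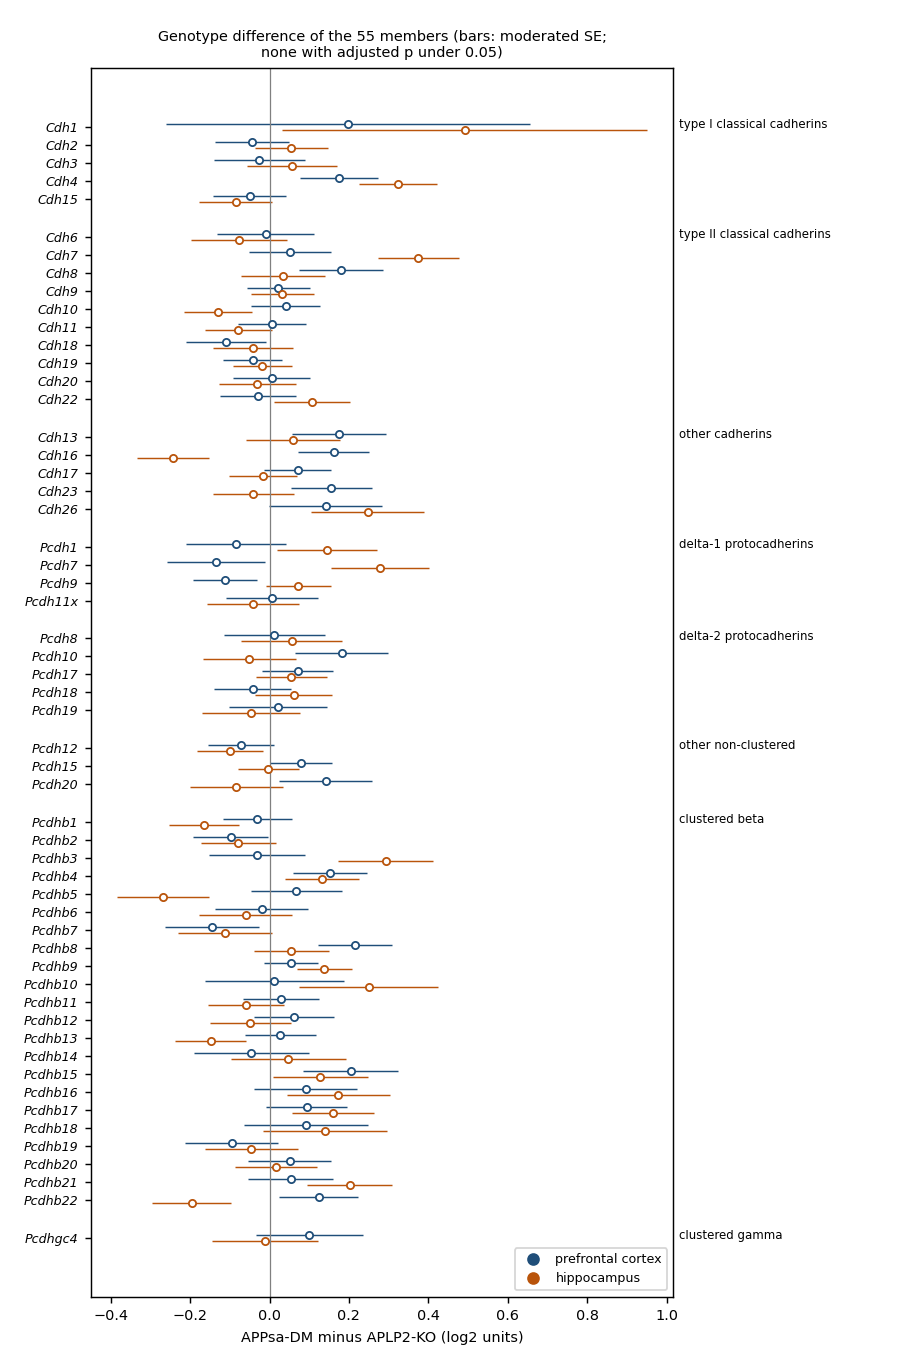
Difference between APPsα-DM and APLP2-KO (horizontal axis, log2 units) of the 55 members in prefrontal cortex (blue) and hippocampus (orange), with moderated standard errors as bars. No point has adjusted p under 0.05, and apart from Cdh1 at 0.49 in hippocampus the points lie between -0.27 and 0.37.

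Genes that work with the members were read from 3 lists. Of 20 measured catenins and junction partners, 6 were called between tissues in both genotypes, beside the 8.31% of all probe sets and 11.4% of genes given above, which also stand beside the counts of the next 2 lists. Lower in hippocampus were Ctnna2, the neuronal alpha-catenin that links cadherins to actin (-0.63 in APLP2-KO and -0.47 in APPsα-DM), Jup or plakoglobin (-0.42 and -0.39), the scaffold kinase Cask (-0.45 and -0.43) and the receptor phosphatase Ptprf (-0.50 and -0.36). Higher were Nectin3, an adhesion molecule of puncta adherentia (0.53 and 0.56), and the plakophilin-related Pkp4 (0.33 and 0.27).

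Of 17 protocadherin partners and promoter regulators, 3 were called in both genotypes, all higher in hippocampus. Abi1 and Wasf1, parts of the WAVE complex that drives actin branching, differed by 0.52 and 0.46 in APLP2-KO and by 0.47 and 0.39 in APPsα-DM, and Ptk2b, the kinase Pyk2 that binds clustered protocadherins, by 0.58 and 0.68.

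Of 21 other genes of the cadherin superfamily and its desmosomes, 7 were called in both. The desmosomal plaque gene Dsp, which is also on the list of dentate granule cell markers, differed most, at 5.36 and 5.02, and Dsg2 of the desmosome was higher by 0.75 and 0.92. Of the calsyntenins, which are synaptic cadherin relatives, Clstn2 was higher (0.83 and 0.82) while Clstn1 (-0.61 and -0.42) and Clstn3 (-0.48 and -0.44) were lower. Of the giant Fat cadherins, Fat4 was higher (0.97 and 0.95) and Fat3 lower (-0.58 and -0.76). None of the genes on these lists was called between genotypes in either tissue. The cortex genotype differences ran from -0.15 to 0.13 on the first list, -0.11 to 0.13 on the second and -0.13 to 1.16 on the third. In hippocampus they ran from -0.08 to 0.18, -0.05 to 0.09 and -0.18 to 0.38 in that order.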

How the data were processed

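Per the submitters' processing notes, the authors made the values with RMA and affy (no version of either is given in the sources used here) and deposited log2 signals per probe set. The deposited log2 table was used as it stood, with 12 value columns and 45101 probe sets. The 64 controls among these did not enter the fit. Array medians lay between 5.86 and 5.91. Each probe set was fitted with 4 group means in limma 3.58.1 (R 4.3.3, lmFit and eBayes), so that all groups shared one estimate of the spread (8 residual degrees of freedom, 4.25 from the prior). Adjusted p is Benjamini-Hochberg over 45037 probe sets and a call is an adjusted p under 0.05. The script was tested on simulated data. Symbols came from the platform annotation, where 34945 probe sets name 1 gene, 932 several and 9160 none. The brightness of a probe set was used only to choose 1 per gene and to set it against the median probe set, not as relative abundance. Array dates were not used here.

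Members, gene lists and the rule for named genes were chosen with earlier results of these data known. In full were given members called in both genotypes with at least 1 log2 unit, by name those called in at least 1 genotype, the 5 smallest p-values per tissue between genotypes and the 3 smallest for the difference between tissues; per-array values of further members were added where they showed a pattern. The labels give 3 mice per genotype but tie no array to a mouse, so p-values measure the spread between these samples. With 3 mice per genotype and 3 arrays per group, cortex and hippocampus arrays may come from the same mice. The main fit did not pair them, so its tissue p-values treat the arrays as independent. Same-numbered cortex and hippocampus arrays deviated together in APLP2-KO (correlations 0.109, 0.131 and 0.155) and less in APPsα-DM (0.0193 to 0.0785). Same-numbered arrays of the 2 genotypes, which are from different mice, gave 0.118, 0.0288 and 0.206 in hippocampus. In cortex they gave -0.0796, -0.255 and -0.126. The correlations therefore do not tell whether equal numbers mark the same mouse. An exact permutation test of 3 against 3 arrays cannot go below p = 0.1 and was not used. Alternatives covered leaving out each array, the arrays high in Ttr, dim probe sets, normalisation, probe set averaging, a variance trend, a choroid plexus covariate and a replicate block.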

Additional observations from a re-analysis of the deposited data

How the results depend on the processing

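Under 21 alternatives, the counts of members called between genotypes in cortex and in hippocampus stayed at 0, as did the count for the difference between tissues in the 20 alternatives that gave one. Of the 13 members called between tissues in both genotypes, 11 passed under every alternative run, and Cdh19 and Pcdh17 did not. Leaving out 1 array at a time, members higher in hippocampus numbered 5 to 8 in APLP2-KO and 4 to 8 in APPsα-DM, and members lower 7 to 10 and 8 to 10. With probe sets dimmer than the median left out, members higher in APPsα-DM hippocampus rose from 6 to 10, the added ones being Cdh11, Pcdhb3, Pcdhb7 and Pcdhb9. In APLP2-KO the same setting gained Cdh2 as higher (adjusted p = 0.0449), and Cdh10 (0.0379) and Pcdhb21 (0.0324) as lower. Fewer probe sets then entered the fit, and the cause of these gains was not tested. With the replicate block, the pairing gave 7 higher and 9 lower in APLP2-KO and 7 and 9 in APPsα-DM; Pcdhb21 in APLP2-KO (adjusted p = 0.0195) and Pcdhb3 in APPsα-DM (0.0378) were gained and Cdh19 in APPsα-DM (0.0578) was lost, and no other member's tissue call changed. Without the 2 cortex arrays high in Ttr, 8 were higher and 9 lower in APLP2-KO and 4 and 9 in APPsα-DM. The counts under these alternatives stand without the share of all probe sets called in the same fits, so they only describe the members. Of 1018 values of named members under these alternatives, 968 kept their direction and side of the threshold, 37 lost a call, 12 gained one and 1 changed sign: the uncalled Pcdhb5 difference in APLP2-KO, which ran from -0.26 to 0.016 as single arrays were left out (0.016 without APLP2-KO cortex array 2) and was -0.13 with all; the cause was not tested. The number of arrays limits the precision: with 3 a group, the median standard error of a member's tissue difference was 0.102 log2 units, and 23 members are dimmer than the median probe set.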

Other observations

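Some members that neighbour each other on a chromosome differed between tissues in the same direction and others did not. On chromosome 15, Cdh6, Cdh9 and Cdh10 follow one another with 0 protein-coding genes between, and in APLP2-KO they differed between hippocampus and cortex by -1.31, 0.88 and -0.26 log2 units, the last not past the threshold. On chromosome 14, Pcdh20 at 2.59 lies next to Pcdh9 at -0.11, with 0 protein-coding genes between them. Pcdh8 at 1.45 and Pcdh17 at 0.40 have 1 protein-coding gene between them, and Pcdh17 and Pcdh20 have 2. These numbers of genes do not give the distance in bases. Cdh7 at -1.35 and Cdh19 at -0.29 on chromosome 1 are adjacent and both lower, and Cdh8 at 0.43 and Cdh11 at 0.33 on chromosome 8 are adjacent and both higher in APLP2-KO hippocampus. These neighbours were picked after their values were seen.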
